A study of Mus musculus with 18 samples.

Results

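The protocadherin genes are the protein-coding genes whose symbols start with Pcdh. They were kept where at least 1 of 18 brain RNA sequencing libraries held 10 or more counts. This gave 36 genes of the 38561 that were counted, and of the 17545 that passed the same minimum. They comprised 22 genes of the Pcdhb cluster, 1 gene model each from the Pcdha and Pcdhg clusters, and 12 non-clustered genes (4 of the delta1 class, 5 of the delta2 class, and Pcdh12, Pcdh15 and Pcdh20). The libraries were made with a stranded mRNA kit from the frontal cortex, striatum and hippocampus of 6 adult mice labelled C57 Bl6J, described in the study as littermates. 3 mice were wild type (WT) and 3 were Pcm1-/-, a mutant made from embryonic stem cells with a gene-trap insertion in Pcm1, the gene of a scaffold protein of centriolar satellites. The study gives only a minimum for the generations of backcross to the labelled strain. How much DNA of the stem cell line each animal kept is not given in the sources used here. The mutation is present in every cell from conception, and each mouse, named in the deposited files, gave 1 library per region. Values are in CPM, counts scaled to the size of the library, and are listed for animals 1, 2 and 3 of each genotype, in that order.

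Protocadherins are adhesion molecules of the cadherin superfamily that bind their own kind across cell contacts. The clustered genes lie in tandem arrays named alpha, beta and gamma, each neuron transcribes its own choice of variable exons from them, and the resulting surface code serves the self-avoidance of dendrites and axons. The alpha and gamma arrays splice their variable exons to shared constant exons that encode a cytoplasmic tail, whereas each beta gene is a self-contained unit without a constant region. Promoter choice in the arrays depends on CTCF and cohesin, which loop promoters to distant enhancers, and on DNA methylation. The non-clustered delta genes are expressed in region-specific patterns and act in axon guidance, synapse formation and synapse elimination.

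The sequences upstream of 4 non-clustered genes are shown because these genes had contrasting regional levels: Pcdh20, Pcdh8 and Pcdh19 were highest in the hippocampus, and Pcdh10 was lowest there. Each run holds the 250 bases before the start site of the RefSeq promoter table (GRCm38.p6), 5′ to 3′ on the gene's strand. The 30 bases after that start were found in an annotated transcript of the gene for Pcdh8 and Pcdh10, but not for Pcdh20 and Pcdh19. Capitals mark matches to 3 short promoter motifs that were searched on both strands, so that a match on the opposite strand shows as its reverse complement. The first motif was TATAAA, which the general transcription machinery is known to bind. Another was CCAAT, known to be bound by NF-Y. The last was GGGCGG, known to be bound by Sp1. The windows are chr14:88471397-88471646 for Pcdh20, chr14:79771313-79771562 for Pcdh8 and chrX:133688994-133689243 for Pcdh19, all on the minus strand, and chr3:45378148-45378397 on the plus strand for Pcdh10.
Pcdh20: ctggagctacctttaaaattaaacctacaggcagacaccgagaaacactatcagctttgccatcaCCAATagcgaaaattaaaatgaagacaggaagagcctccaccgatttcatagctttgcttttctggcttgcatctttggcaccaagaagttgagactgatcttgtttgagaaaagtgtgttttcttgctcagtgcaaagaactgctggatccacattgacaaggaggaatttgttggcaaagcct
Pcdh8: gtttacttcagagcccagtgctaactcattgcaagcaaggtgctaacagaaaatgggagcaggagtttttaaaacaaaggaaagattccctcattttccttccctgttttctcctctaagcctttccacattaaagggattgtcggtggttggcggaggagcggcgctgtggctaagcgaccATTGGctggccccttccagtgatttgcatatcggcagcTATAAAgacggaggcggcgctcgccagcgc
Pcdh19: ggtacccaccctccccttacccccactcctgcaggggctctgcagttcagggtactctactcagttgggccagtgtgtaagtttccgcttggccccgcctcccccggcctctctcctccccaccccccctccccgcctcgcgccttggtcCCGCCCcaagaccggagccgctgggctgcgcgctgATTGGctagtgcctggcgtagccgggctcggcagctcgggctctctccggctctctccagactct
Pcdh10: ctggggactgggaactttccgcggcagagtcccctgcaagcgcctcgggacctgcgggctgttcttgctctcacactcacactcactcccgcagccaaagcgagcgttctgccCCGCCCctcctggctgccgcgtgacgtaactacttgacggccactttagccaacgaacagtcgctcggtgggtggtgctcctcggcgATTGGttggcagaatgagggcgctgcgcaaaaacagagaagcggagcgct
CCAAT occurred once in each of the 4 windows, and in 33.8% of all 32851 promoters of the table. TATAAA occurred in the Pcdh8 window, 30 bases before the start, against 12.4% of all promoters. GGGCGG occurred in the Pcdh19 and Pcdh10 windows, against 32.7% of all promoters. The GC content of the windows was 42.4% for Pcdh20, 51.2% for Pcdh8, 69.2% for Pcdh19 and 63.2% for Pcdh10, against a median of 52.4%. These matches describe letters in a window and were not related to binding of any factor.

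All 22 Pcdhb genes lay on the plus strand of chromosome 18 (GRCm38), from the start of Pcdhb1 at 37264938 to the end of Pcdhb22 at 37524479. The Pcdha identifier, ENSMUSG00000007440, is Pcdha11 in the GENCODE annotation and the Pcdhg identifier, ENSMUSG00000023036, is Pcdhgc4. The other 13 of 14 annotated Pcdha genes and 20 of 21 annotated Pcdhg genes had no line of their own in the counts, and which exons these 2 gene models covered in the older annotation that the authors used is not given in the sources used here. Pcdha and Pcdhg below therefore mean these 2 gene models, without separation of isoforms and without a level per length. Counting used reads with a single genomic position, so reads shared by near-identical Pcdhb genes would be lost, and Pcdhb21 and Pcdhb22 overlap on the same strand. Pcdh7 and Pcdh19 overlap a gene on the opposite strand (4932441J04Rik and Gm26851), and the strand setting of the counting is not given in the sources used here.

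The libraries held between 24950537 and 33405081 counts on genes, of which protocadherins took 0.212% to 0.304%. Pcm1 itself was lower in the mutants in each region (log2 difference −3.46 in frontal cortex, −3.29 in striatum and −3.51 in hippocampus). Striatal markers were higher in striatum than in either other region for 8 of 8 genes. Hippocampal markers were higher in hippocampus than in frontal cortex for 8 of 8 and than in striatum for 7 of 8. Frontal cortex markers were higher in frontal cortex than in hippocampus for 7 of 7 and than in striatum for 6 of 7. 1 WT striatum library, from WT animal 2, stood apart with 5621 CPM of Ttr, the thyroxine carrier made by the choroid plexus, against 2.93 to 126 CPM in the other 5 striatum libraries. In the striatum no lane held libraries of both genotypes, and the lane cannot be told apart from the genotype there. In bulk tissue, fewer cells of a type and less RNA per cell cannot be told apart.

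Per kilobase of exon that belongs to no other gene on the same strand, the highest mean level over all libraries was that of Pcdh1, at 40.1 CPM per kb. It was followed by Pcdh10 (20.3 CPM per kb), Pcdh9 (19.1), Pcdh20 (13.9), Pcdh7 (10.1), Pcdh17 (9.18) and Pcdh8 (8.73). Pcdhb9 ranked next with 7.95 CPM per kb and was the highest beta gene, ahead of Pcdh19 at 6.19 CPM per kb and Pcdhb20 at 4.01. At the low end were Pcdh15, the tip-link protein of inner ear hair cells (0.334 CPM per kb), Pcdhb1 (0.171) and Pcdh12, an endothelial protocadherin (0.0401). Pcdh12 had at most 10 counts and Pcdhb1 at most 38 counts in any library, so their differences rest on few counts. Pcdh12 was lower in striatum than in frontal cortex (log2 difference −0.89, adjusted p = 0.0345) and than in hippocampus (−0.86, adjusted p = 0.0483) with edgeR's test described below, and neither call held with DESeq2 (adjusted p = 0.119 and 0.141). It met the minimum of 10 counts only in frontal cortex and hippocampus libraries, so a lower level in striatum was partly fixed by that choice.

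Between regions, both non-clustered and beta genes had differences of at least 2-fold. Regions were compared within animals in a fit over the 18 libraries (quasi-likelihood test of edgeR). All adjusted p values given here are Benjamini-Hochberg adjusted over the 17545 genes. Between striatum and frontal cortex 14 protocadherins passed as higher in striatum and 14 as lower, 28 of 36, where 33.4% of all genes passed as higher and 32.2% as lower, 65.7% in all. Between hippocampus and frontal cortex 16 passed as higher in hippocampus and 9 as lower, where 28.3% of all genes passed in either direction, 56.6% in all. Between striatum and hippocampus 16 were higher in striatum and 14 lower, where 28.3% of all genes passed as higher and 28.6% as lower, 56.8% in all. At an adjusted p under 0.05 and a difference of at least 2-fold, 5 were higher and 5 lower in striatum than in frontal cortex (9.36% and 9.76% of all genes, 19.1% in all), 3 higher and 4 lower in hippocampus than in frontal cortex (8.21% and 5.72%, 13.9% in all), and 4 higher and 6 lower in striatum than in hippocampus (6.53% and 8.87%, 15.4% in all).

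**Figure D1:**
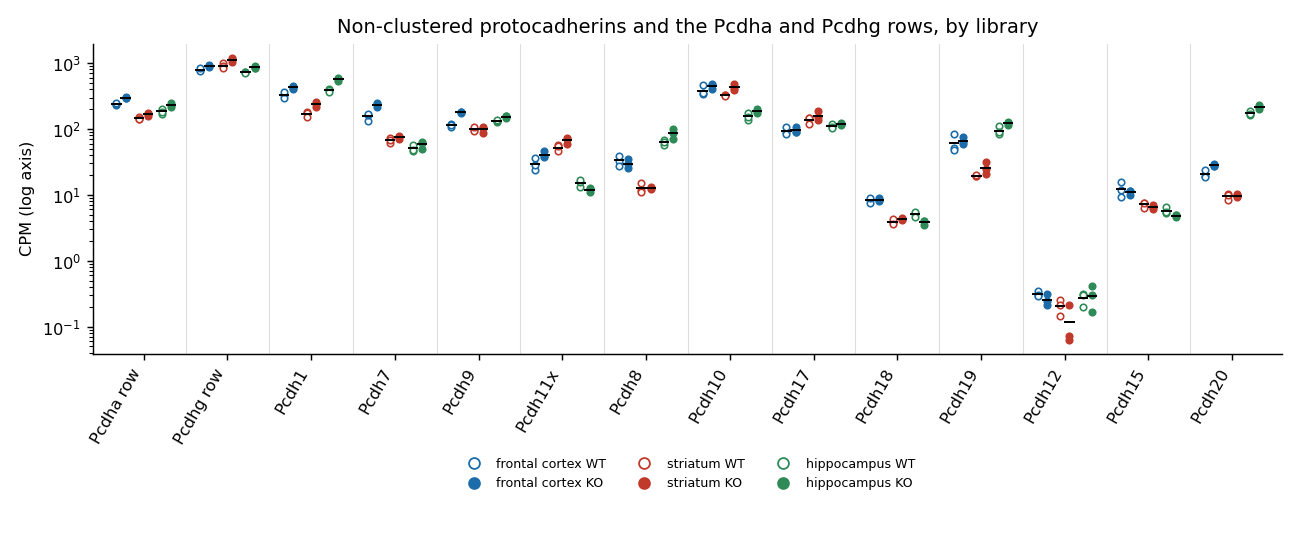
Levels of the Pcdha and Pcdhg gene models and the 12 non-clustered protocadherins in CPM (log axis) in each of the 18 libraries, by region and genotype (open WT, filled KO, which is Pcm1-/-), with the mean of each group as a bar. Pcdh20 lies between 164 and 235 CPM in hippocampus and at or below 29.3 CPM elsewhere, and Pcdh11x is highest in striatum.

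Pcdh20, a non-clustered gene outside the delta classes, was the member with the largest difference between 2 regions. Its lowest, median and highest levels were 164, 193 and 235 CPM in the 6 hippocampus libraries, 18.4, 25.5 and 29.3 CPM in frontal cortex and 8.31, 9.79 and 10.3 CPM in striatum, and no 2 regions overlapped. The level in hippocampus was 8.05-fold that in frontal cortex (log2 difference 3.01 ± 0.073, standard error, adjusted p = 8.78e-12) and 20.1-fold that in striatum (log2 difference, striatum minus hippocampus, −4.33 ± 0.080, adjusted p = 1.8e-13). By mean level, the order hippocampus, frontal cortex, striatum held for 10 of 36 members, 4 of them non-clustered (Pcdh20, Pcdh8, Pcdh19 and Pcdh1) and 6 of them beta genes. Pcdh8, an activity-induced delta2 protocadherin also called arcadlin, ranged from 56.6 to 102 CPM with a median of 69.7 in hippocampus, from 25.2 to 39.3 CPM with a median of 31.1 in frontal cortex, and from 11 to 15.1 CPM with a median of 12.6 in striatum. Its regions did not overlap either, and the difference between striatum and hippocampus was −2.53 ± 0.090 on the log2 scale (adjusted p = 5e-11).

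Pcdh19, the X-linked delta2 gene mutated in a female-limited epilepsy, ranged from 83.1 to 127 CPM with a median of 113 in hippocampus, from 48.7 to 84.2 CPM with a median of 61.4 in frontal cortex, and from 19.2 to 31.6 CPM with a median of 20.4 in striatum. Hippocampus and frontal cortex overlapped in 1 library of frontal cortex (WT animal 3, 84.2 CPM), and striatum stood below both. The log2 differences were −2.26 ± 0.13 between striatum and hippocampus (adjusted p = 6.41e-09) and 0.76 ± 0.12 between hippocampus and frontal cortex (adjusted p = 0.000177). Pcdh1, a delta1 gene also known from airway epithelium, ranged from 361 to 585 CPM with a median of 473 in hippocampus, from 299 to 447 CPM with a median of 386 in frontal cortex, and from 154 to 257 CPM with a median of 198 in striatum. Its hippocampus and frontal cortex libraries overlapped although the within-animal difference passed the test (0.32 ± 0.058 on the log2 scale, adjusted p = 0.000439, but 0.0704 in the 9 WT libraries alone), and every striatum library was below every library of the other regions.

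Other delta genes had other orders. Pcdh11x, an X-linked delta1 gene, was highest in striatum, with 45.9 to 72.9 CPM and a median of 58.0, against 24.0 to 45.9 CPM with a median of 36.6 in frontal cortex and 11 to 16.9 CPM with a median of 13 in hippocampus. Striatum exceeded hippocampus 4.4-fold (log2 difference 2.14 ± 0.067, adjusted p = 1.6e-11), and those regions did not overlap. Pcdh7, a delta1 gene, was highest in frontal cortex, with 133 to 244 CPM and a median of 194, against 61.0 to 77.9 CPM with a median of 72.0 in striatum and 46.0 to 64.2 CPM with a median of 54.1 in hippocampus. The frontal cortex libraries stood above all others, with log2 differences of −1.43 ± 0.064 for striatum (adjusted p = 4.36e-10) and −1.81 ± 0.065 for hippocampus (adjusted p = 1.97e-10).

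Pcdh10, a delta2 gene that recruits the WAVE actin regulators and acts in synapse elimination, measured 341 to 479 CPM with a median of 432 in frontal cortex, 316 to 485 CPM with a median of 363 in striatum and 135 to 199 CPM with a median of 175 in hippocampus. Frontal cortex and striatum overlapped and did not differ past the threshold (−0.15 ± 0.079 on the log2 scale, adjusted p = 0.119), and hippocampus was below both (hippocampus minus frontal cortex, −1.28 ± 0.081, adjusted p = 3.29e-08). Pcdh17, a delta2 gene of corticostriatal circuits, was highest in striatum at 149 CPM ± 23.6 (SD, n = 6), against 115 ± 8.51 CPM in hippocampus and 94.1 ± 9.65 CPM in frontal cortex, and all 3 within-animal differences passed the test. In the 9 WT libraries alone that between hippocampus and frontal cortex did not (0.24, adjusted p = 0.0902). Pcdh9, a delta1 gene, was lower in striatum (99.0 ± 8.17 CPM) than in frontal cortex (146 ± 35.8 CPM) and hippocampus (143 ± 13.5 CPM). Between the last 2 its log2 difference was 0.01 ± 0.049 (adjusted p = 0.92), but it was 0.22 in the 9 WT libraries alone (adjusted p = 0.0285) and −0.21 in the 9 mutant libraries alone (adjusted p = 0.0458). Pcdh15 (11.7 ± 2.20 CPM) and Pcdh18, a delta2 gene (8.31 ± 0.529 CPM), were highest in frontal cortex, with log2 differences of −0.76 and −1.02 for striatum and −1.13 and −0.91 for hippocampus, all past the threshold.

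Among the clusters, striatum had the lowest level of Pcdha and the highest of Pcdhg. Pcdha ranged from 234 to 305 CPM with a median of 272 in frontal cortex, from 169 to 246 CPM with a median of 208 in hippocampus and from 141 to 176 CPM with a median of 155 in striatum. Striatum was lower than frontal cortex by −0.78 ± 0.049 on the log2 scale (adjusted p = 1.35e-08), and hippocampus lay between them. Pcdhg ranged from 857 to 1193 CPM with a median of 1020 in striatum, from 752 to 943 CPM with a median of 847 in frontal cortex and from 709 to 900 CPM with a median of 786 in hippocampus. Its regions overlapped, and the within-animal log2 difference was 0.27 ± 0.053 between striatum and frontal cortex (adjusted p = 0.000582, but 0.0595 in the 9 WT libraries alone) and −0.09 ± 0.053 between hippocampus and frontal cortex (adjusted p = 0.16).

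The beta genes did not move as a block between regions. In striatum 11 were higher than in frontal cortex and 4 lower, 15 of 22, where 65.7% of all genes passed. In hippocampus 11 were higher than in frontal cortex and 3 lower, 14 of 22, where 56.6% of all genes passed, and these 14 calls became 7 without the animal as a block and 9 with the lane as a covariate. Between striatum and hippocampus 10 were higher in striatum and 7 lower, 17 of 22, where 56.8% of all genes passed. As shares of counts, without regard to length, Pcdhb9 made up 13.8% of the Pcdhb sum in frontal cortex and 13.1% in hippocampus but 8.24% in striatum, where Pcdhb14 took 10.5%, against 6.26% in frontal cortex and 6.90% in hippocampus. Per length Pcdhb9 was highest in striatum too, at 6.29 CPM per kb, ahead of Pcdhb20 at 5.29 and with Pcdhb14 at 2.84. Pcdhb6 made up 1.61% in frontal cortex, 1.90% in hippocampus and 4.75% in striatum, and Pcdhb8 2.43%, 2.17% and 5.39%. In contrast Pcdhb2 had shares of 3.52%, 4.58% and 1.73%, and Pcdhb3 of 5.08%, 5.15% and 2.26%, in frontal cortex, hippocampus and striatum.

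**Figure D2:**
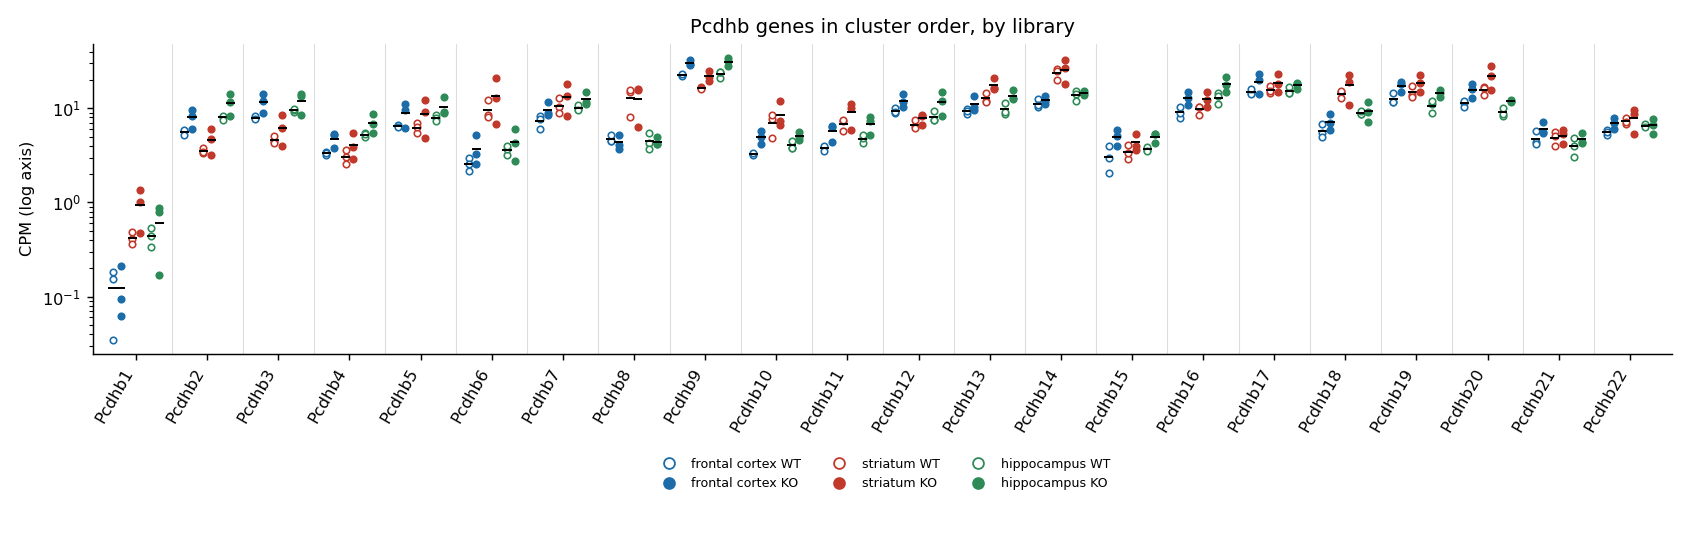
Levels of the 22 Pcdhb genes in CPM (log axis), in their order along the chromosome, with 1 point per library (open WT, filled KO, which is Pcm1-/-) and the mean of each region and genotype as a bar. Pcdhb6, Pcdhb8 and Pcdhb18 are higher in striatum than in the other regions, and Pcdhb2 and Pcdhb3 are lower there.

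Pcdhb6 measured 6.84 to 20.8 CPM with a median of 10.4 in striatum, 2.14 to 5.20 CPM with a median of 2.77 in frontal cortex and 2.77 to 6.05 CPM with a median of 3.83 in hippocampus. Striatum did not overlap the other regions (striatum minus frontal cortex, 1.86 ± 0.12 on the log2 scale, adjusted p = 1.71e-08). The other beta genes at least 2-fold higher in striatum than in frontal cortex were Pcdhb1, Pcdhb8, Pcdhb14 and Pcdhb18, with log2 differences of 2.35, 1.45, 1.06 and 1.29. Pcdhb1 had at most 6 counts in frontal cortex and met the minimum of 10 only in the other regions, so its difference was partly fixed by that choice. Pcdhb2 measured 3.21 to 5.96 CPM with a median of 3.62 in striatum, 5.24 to 9.69 CPM with a median of 5.91 in frontal cortex and 7.49 to 14.1 CPM with a median of 8.29 in hippocampus. Its striatum libraries overlapped those of frontal cortex and not those of hippocampus (striatum minus hippocampus, −1.23 ± 0.067, adjusted p = 3.2e-09). Pcdhb3 fell by 0.86 on the log2 scale from frontal cortex to striatum. The plot of regional differences sets all members side by side.

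**Figure D3:**
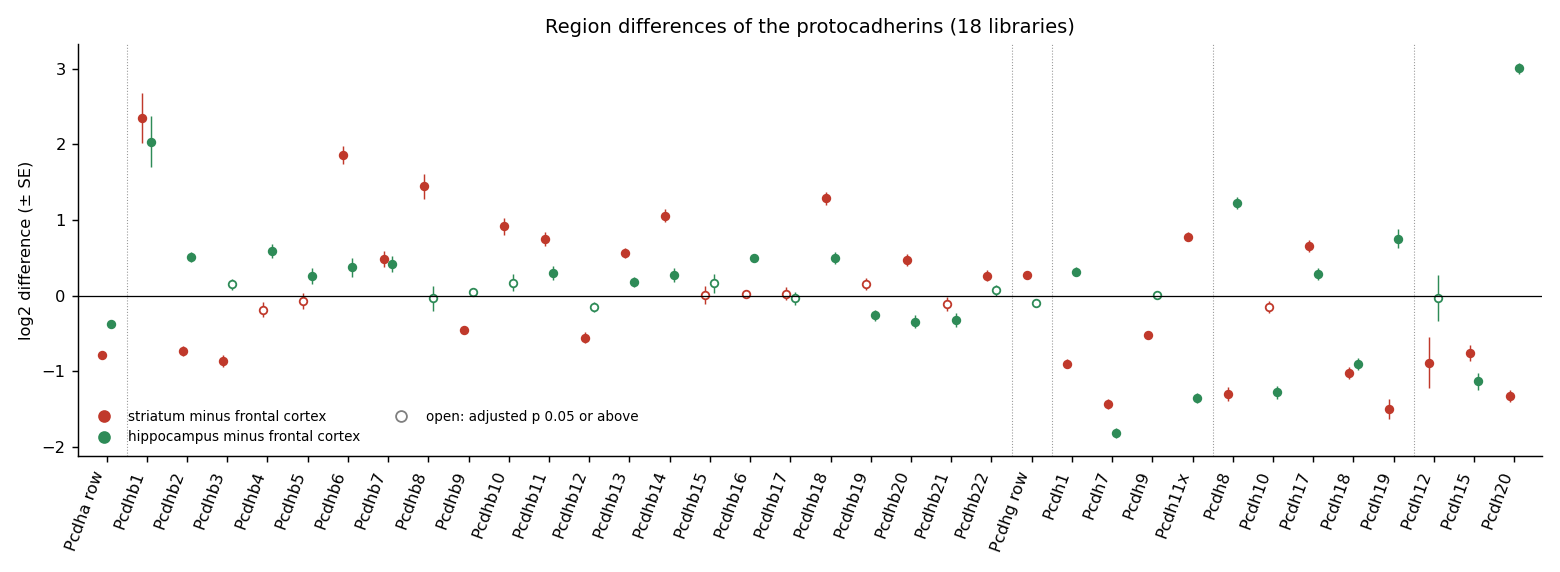
Within-animal log2 differences from frontal cortex of striatum and of hippocampus for the 36 protocadherins, with standard errors as bars; filled points passed an adjusted p under 0.05 (edgeR quasi-likelihood). The beta genes spread to both sides of 0 in both comparisons, and Pcdh20 lies highest in hippocampus minus frontal cortex, at 3.01.

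By genotype, protocadherins lay mostly higher in Pcm1-/- mice, and single genes passed the test in the frontal cortex. There 4 members were higher and 0 lower, where 1.41% of all genes passed as higher and 0.336% as lower. In both directions together 1.74% passed. The 4 members were Pcdh9, Pcdh7, Pcdha and Pcdhb9. Before adjustment, 21 of 36 were higher and 0 lower at p under 0.05, where 7.84% of all genes were higher and 7.47% lower, and 31 of 36 had a log2 difference above 0, against 48.1% of all genes. The median log2 difference was 0.36 over the 36 members and −0.01 over all genes tested.

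Pcdh9 in frontal cortex measured 106, 119 and 116 CPM in WT animals and 172, 182 and 180 CPM in Pcm1-/- animals. The genotypes did not overlap, with a log2 difference of 0.64 ± 0.061 (adjusted p = 0.00484). Pcdh7 measured 133, 165 and 171 CPM in WT and 241, 216 and 244 CPM in Pcm1-/- animals, again without overlap (0.57 ± 0.096, adjusted p = 0.0269). Pcdha measured 234, 239 and 249 CPM in WT and 305, 294 and 295 CPM in Pcm1-/- animals, and the lowest mutant library was above the highest WT library (0.30 ± 0.050, adjusted p = 0.0270).

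Pcdhb9, the most abundant beta gene per length, measured 22.3, 21.8 and 23.3 CPM there in WT animals and 32.5, 29.4 and 28.5 CPM in mutants. These groups too were apart (0.42 ± 0.072, adjusted p = 0.0326). Pcdh1 was just outside the threshold, with 331, 299 and 362 CPM in WT and 424, 411 and 447 CPM in Pcm1-/- animals (0.36 ± 0.074, adjusted p = 0.0501). All 4 delta1 genes thus had values above 0 in this region, Pcdh11x with 0.46 ± 0.14 (adjusted p = 0.158), whereas the delta2 genes were spread around 0, from −0.17 for Pcdh8 to 0.23 for Pcdh10, with 0 of 5 past an unadjusted p under 0.05. Pcdh20 had 19.2, 18.4 and 23.9 CPM in WT and 29.3, 27.9 and 27.2 CPM in Pcm1-/- animals, a difference of 0.45 ± 0.10 that missed the adjusted threshold (adjusted p = 0.0691).

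Of the beta genes in frontal cortex, 20 of 22 had values above 0, 14 at an unadjusted p under 0.05, with a median log2 difference of 0.44. The values ran from −0.12 ± 0.15 for Pcdhb8 to 0.72 ± 0.24 for Pcdhb15 (adjusted p = 0.198). The calls depended on single libraries: without any 1 of WT animal 2 and the 3 mutant animals, and with the lane as a covariate, Pcdh9 alone was called, without WT animal 1 Pcdh9 and Pcdh7 were, and without WT animal 3 there were 11 calls. Oligodendrocyte markers, summed over 7 genes, were at 1911 to 2551 CPM in the WT and 1719.95 to 1821 CPM in the mutant libraries of this region, microglial markers (6 genes) at 302 to 405 and 259 to 294 CPM, and markers of GABAergic neurons (6 genes) at 770 to 950 and 944 to 1025 CPM. Of these lists 0, 0 and 1 gene passed the adjusted test, the last being Sst, higher in the mutants, and at an unadjusted p under 0.05, 4 of 7 and 5 of 6 were lower and 2 of 6 higher. Endothelial and mural markers (7 genes) were at 246 to 328 CPM in WT and 226 to 233 CPM in mutant libraries, with 5 of 7 lower at an unadjusted p under 0.05. Markers of glutamatergic neurons (5 genes) were at 8873 to 10154 and 8682 to 8921 CPM, with Slc17a7 higher (0.26) and Camk2a lower (−0.32) past the adjusted threshold, and of 8 striatal markers Drd1 was higher (0.68). The part of these lists in the protocadherin differences was not tested.

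In the striatum 0 members passed in either direction, where 0.0285% of all genes (5 genes) passed, 0.0228% as higher and 0.0057% as lower. At an unadjusted p under 0.05, 11 were higher and 0 lower (6.54% and 6.98% of all genes), and DESeq2 called 5 as higher. The median log2 difference was 0.31, with 32 of 36 above 0 (49.1% of all genes). Pcdh1 measured 178, 154 and 182 CPM in WT and 257, 214 and 240 CPM in Pcm1-/- animals, and Pcdh10 measured 330, 316 and 323 CPM in WT and 485, 395 and 415 CPM in Pcm1-/- animals. Neither gene overlapped between genotypes, and the log2 differences were 0.47 ± 0.091 (adjusted p = 0.128) and 0.42 ± 0.085 (adjusted p = 0.136). Pcdh9, the member with the smallest adjusted p in the frontal cortex, was at 93.1, 108 and 96.4 CPM in WT striatum and 103, 106 and 87.0 CPM in Pcm1-/- striatum (0.00 ± 0.091).

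Of the beta genes in striatum, 21 of 22 had values above 0 (median 0.35), from −0.03 ± 0.36 for Pcdhb8 to 1.17 ± 0.41 for Pcdhb1, whose counts were few. Without the WT library rich in choroid plexus transcripts 0 members passed, 10 were higher at an unadjusted p under 0.05, and the median was 0.25. Summed over 7 genes, choroid plexus markers were at 52.5 to 6021 CPM in WT and 31.5 to 169 CPM in Pcm1-/- striatum, and oligodendrocyte markers were at 9255 to 9448 and 5616 to 9152 CPM. Microglial markers were at 386 to 543 and 343 to 394 CPM, with 5 of 6 lower at an unadjusted p under 0.05, and of 8 striatal markers 5 were higher at that level. Astrocyte markers (6 genes) were at 1472 to 2038 and 1290.2 to 1401 CPM (3 of 6 lower unadjusted), endothelial and mural markers at 257 to 289 and 232 to 235 CPM (2 of 7 lower), and meningeal markers (6 genes) at 16.2 to 24.3 and 11.5 to 14.4 CPM (2 of 6 lower), each without overlap. The part of these lists in the striatal values was not tested.

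In the hippocampus 0 members passed, where 0.0171% of all genes (3 genes) passed, 0.0114% as higher and 0.0057% as lower. At an unadjusted p under 0.05, 17 members were higher and 2 lower (4.84% and 5.06% of all genes), and DESeq2 called 2 as higher. The median log2 difference was 0.31, with 31 of 36 above 0 (49.8% of all genes). Pcdh1 had the smallest adjusted p of the members, with 406, 388 and 361 CPM in WT and 578, 585 and 540 CPM in Pcm1-/- animals, which did not overlap (0.54 ± 0.081, adjusted p = 0.287). Pcdh20 was at 164, 185 and 166 CPM in WT and 235, 217 and 201 CPM in Pcm1-/- animals, also without overlap (0.32 ± 0.086, adjusted p = 0.401).

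The members lower at an unadjusted p in hippocampus were Pcdh11x and Pcdh18. Pcdh11x measured 13.2, 15.4 and 16.9 CPM in WT and 11, 12.7 and 12.2 CPM in Pcm1-/- animals (−0.36 ± 0.13, adjusted p = 0.440). Pcdh18 measured 5.12, 5.54 and 4.64 CPM in WT and 4.01, 3.48 and 4.04 CPM in Pcm1-/- animals (−0.42 ± 0.15, adjusted p = 0.455). For both genes every mutant library was below every WT library. Beta genes ran from −0.04 ± 0.19 for Pcdhb8 to 0.52 ± 0.19 for Pcdhb11 (median 0.38, 20 of 22 above 0). The markers of thalamus and septum, which can be carried along in a hippocampal dissection, were at 199 to 484 CPM in WT and 130 to 262 CPM in Pcm1-/- hippocampus (6 genes summed), and choroid plexus markers at 2173 to 6328 and 227 to 4182 CPM. Endothelial and mural markers were at 219.7 to 281 and 181 to 227 CPM, with 4 of 7 lower at an unadjusted p under 0.05, and oligodendrocyte markers at 4877 to 9628 and 3688 to 6025 CPM, with 1 of 7 lower. The part of these lists in the hippocampal values was not tested.

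**Figure D4:**
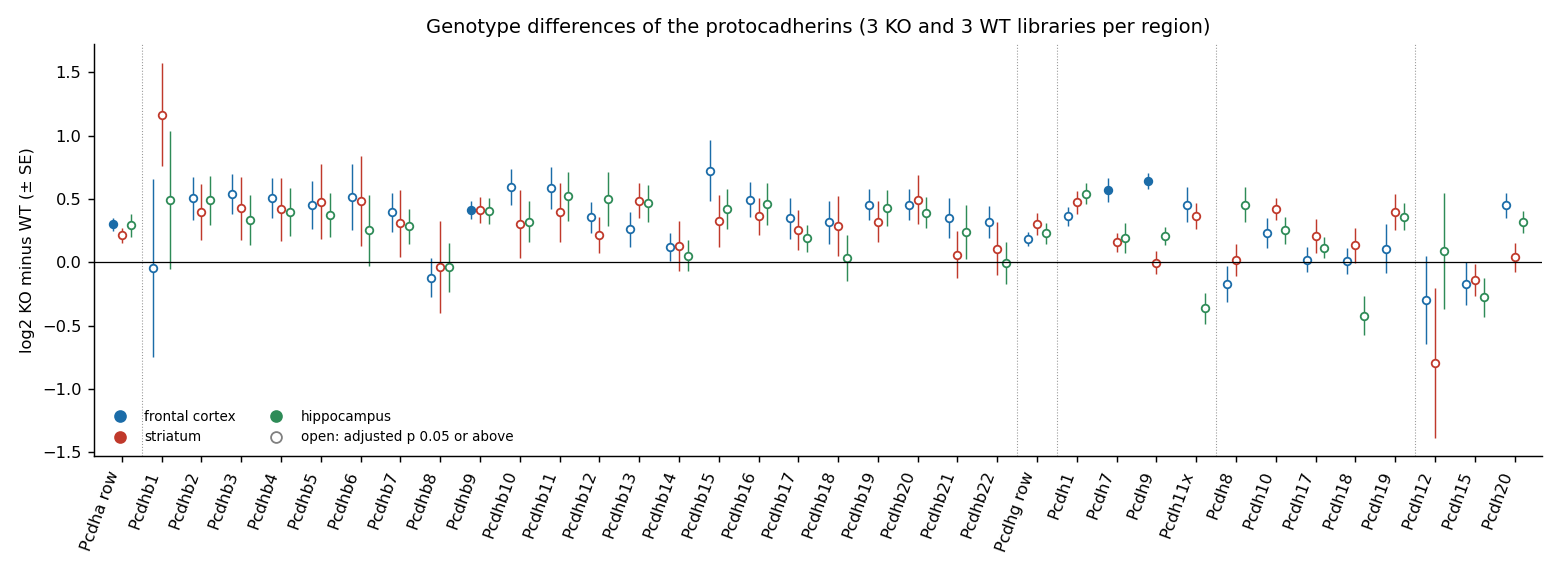
Log2 differences between Pcm1-/- and WT (KO in the plot) for the 36 protocadherins in each region, with standard errors as bars; filled points passed an adjusted p under 0.05 (edgeR quasi-likelihood). Most points lie above 0, and the only filled points are the 4 members that passed in the frontal cortex.

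With the counts of each animal's 3 regions summed, so that the animal is the unit, 4 members were higher in Pcm1-/- mice and 0 lower, where 0.992% of all genes passed as higher and 0.393% as lower, 1.39% in all. These were Pcdh1 (0.46 ± 0.059, adjusted p = 0.0291), Pcdh7 (0.44 ± 0.066, adjusted p = 0.0363), Pcdh9 (0.32 ± 0.047, adjusted p = 0.0362) and Pcdha (0.28 ± 0.044, adjusted p = 0.0377). Pcdhb9 (0.41 ± 0.076), Pcdh10 (0.30 ± 0.062) and Pcdhg (0.23 ± 0.049) were outside the threshold, with adjusted p values of 0.0523, 0.0672 and 0.0703. At an unadjusted p under 0.05, 20 members were higher and 0 lower (8.76% and 8.49% of all genes). The median log2 difference was 0.32 over the members, with 32 of 36 above 0 (48.5% of all genes), and −0.01 over all genes. As the mean of an animal's 3 regions, oligodendrocyte markers were at 5396 to 7145 CPM in WT animals and 4160.03 to 4887 CPM in mutants, with 6 of 7 lower at an unadjusted p under 0.05 and Mag lower past the adjusted threshold. Microglial markers were at 334 to 463 and 299 to 335 CPM (5 of 6 lower unadjusted), endothelial and mural markers at 248 to 299.6 and 214 to 231 CPM (4 of 7 lower), astrocyte markers at 1571 to 2057 and 1510.3 to 1556 CPM (2 of 6 lower), and thalamus and septum markers at 138 to 203 and 82.9 to 126 CPM (4 of 6 lower, Lef1 past the adjusted threshold). Drd1 of the striatal and Slc17a7 of the glutamatergic list were higher past the adjusted threshold (0.55 and 0.36). The part of these lists in the summed differences was not tested. The summed profiles hold the same libraries as the regional tests and are not separate evidence. Without any 1 animal the number of calls fell to 0, except without WT animal 3, when it was 5.

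In terms of separation between the genotypes, every mutant library was above every WT library for 19 of 36 members in frontal cortex, where this held for 12% of all genes, for 9 in striatum (9.6% of all genes) and for 18 in hippocampus (10.6%). Every mutant library was below every WT library for 0 members in frontal cortex, 0 in striatum and 3 in hippocampus (9.28%, 9.39% and 6.46% of all genes), namely Pcdh11x, Pcdh15 and Pcdh18. Separation upward in all 3 regions held for 5 of 36 members, and for 1.9% of all genes. The 5 were Pcdha, Pcdhb9, Pcdhb16, Pcdhg and Pcdh1, of which Pcdhb16 is named after its values were seen. Pcdhg measured 896, 857 and 1003 CPM in WT and 1168, 1037 and 1193 CPM in Pcm1-/- striatum, 795, 752 and 828 CPM against 903, 866 and 943 CPM in frontal cortex, and 738, 737 and 709 CPM against 834, 900 and 857 CPM in hippocampus. Its difference did not pass the adjusted test in any region (log2 differences of 0.30, 0.18 and 0.23).

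Summed by class, the Pcdhb genes of the frontal cortex came to 165 ± 5.48 CPM (SD, n = 3) in WT animals and 218 ± 33.5 CPM in mutants, and those of the other regions to 210 ± 19.5 and 262 ± 69.5 CPM in striatum, and to 184 ± 8.44 and 233 ± 31.2 CPM in hippocampus. The genotypes overlapped in striatum and were apart in the other regions. The spread between mutants was wider than that between WT animals in each region. Delta1 genes summed to 630 ± 48.7 and 880 ± 31.6 CPM in frontal cortex, 390 ± 15.7 and 478 ± 30.9 CPM in striatum, and 583 ± 17 and 793 ± 21.1 CPM in hippocampus, and delta2 genes to 578 ± 103 and 651 ± 58.4 CPM, 498 ± 24.6 and 634 ± 80.1 CPM, and 426 ± 25.1 and 520 ± 15.0 CPM. Only the delta2 sum of the frontal cortex overlapped among these 6 comparisons. As a share of all protocadherin counts the Pcdhb genes took 6.40% to 6.99% in WT animals and 6.57% to 8.30% in mutants in the frontal cortex, so the ranges overlapped.

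Whether the genotype difference changed between regions was tested as an interaction within animals. It passed for 0 of 36 members and 0 of 17545 genes with edgeR, and DESeq2 called 2 members, Pcdh9 and Pcdh11x. At an unadjusted p under 0.05 the interaction held 5 members (Pcdh9, Pcdh11x, Pcdh8, Pcdh7 and Pcdh18) and 7.89% of all genes. For Pcdh9 the mutant difference in striatum was smaller than that in frontal cortex by −0.66 ± 0.099 on the log2 scale, and that in hippocampus by −0.42 ± 0.098 (adjusted p of the joint test 0.129). For Pcdh11x the difference in hippocampus was −0.81 ± 0.13 relative to frontal cortex (adjusted p of the joint test 0.129), with 24.0, 28.7 and 35.8 CPM in the frontal cortex of WT animals, 45.9, 37.5 and 38.7 CPM in that of mutants and lower mutant values in hippocampus, as above.

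The beta genes varied between the mutant animals, in a like order in the 3 regions. A test for animal differences within genotype over the 18 libraries called 9 members, where 5.88% of all genes passed, and all 9 were beta genes, against 0 of 12 non-clustered genes. They were Pcdhb2 (adjusted p = 0.00299), Pcdhb16 (0.00382), Pcdhb3 (0.00505), Pcdhb6 (0.00519), Pcdhb18 (0.00895), Pcdhb5, Pcdhb11, Pcdhb12 and Pcdhb22. The count of members was 5 with the lane as a covariate, 14 with DESeq2 (13 of them beta genes), and 6 to 12 without 1 library. Pcdhb2 in hippocampus measured 8.16, 8.35 and 7.49 CPM in WT animals and 14.1, 8.22 and 11.7 CPM in Pcm1-/- animals, and in frontal cortex 5.67, 5.86 and 5.24 CPM against 9.69, 5.96 and 8.33 CPM. In both regions mutant animal 1 was highest, mutant animal 3 next and mutant animal 2 near the WT animals.

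Most beta genes had this order in the mutants. Mutant animal 1 was the highest of the 3 mutants for 19 of 22 beta genes in frontal cortex, 21 in striatum and 20 in hippocampus, and for 17 in all 3 regions. Mutant animal 2 was the lowest for 19, 21 and 14 of 22, and for 13 in all 3 regions. No WT animal was the highest in all 3 regions for more than 3 of 22 beta genes, or the lowest for more than 1. The names of the animals fall into 3 number series: mutant animal 1 is alone in 1 of them, WT animal 1 is alone in another, and the other 4 animals share the third. What a series stands for is not given in the sources used here, and for mutant animal 1 it cannot be told apart from the animal. Relative to mutant animal 1, all 22 beta genes had values below 0 in mutant animal 2, as had 8670 of all 17545 genes. The median log2 difference of the beta genes was −0.56. At an adjusted p under 0.05, 9 of them were lower, where 0.695% of all genes differed. The largest such differences were −1.57 ± 0.41 for Pcdhb1 (adjusted p = 0.140) and −1.28 ± 0.17 for Pcdhb6 (adjusted p = 0.00218). Relative to mutant animal 2, 21 of 22 beta genes had values above 0 in mutant animal 3 (median 0.28), and 3 passed the adjusted threshold (Pcdhb2, Pcdhb3 and Pcdhb11, named after their values were seen), where 0.769% of all genes differed. Between WT animals 1 beta gene passed in 1 of 3 pairs, where 4.1%, 5.02% and 2.23% of all genes differed, and the median differences over the cluster were −0.03, 0.09 and 0.06.

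**Figure D5:**
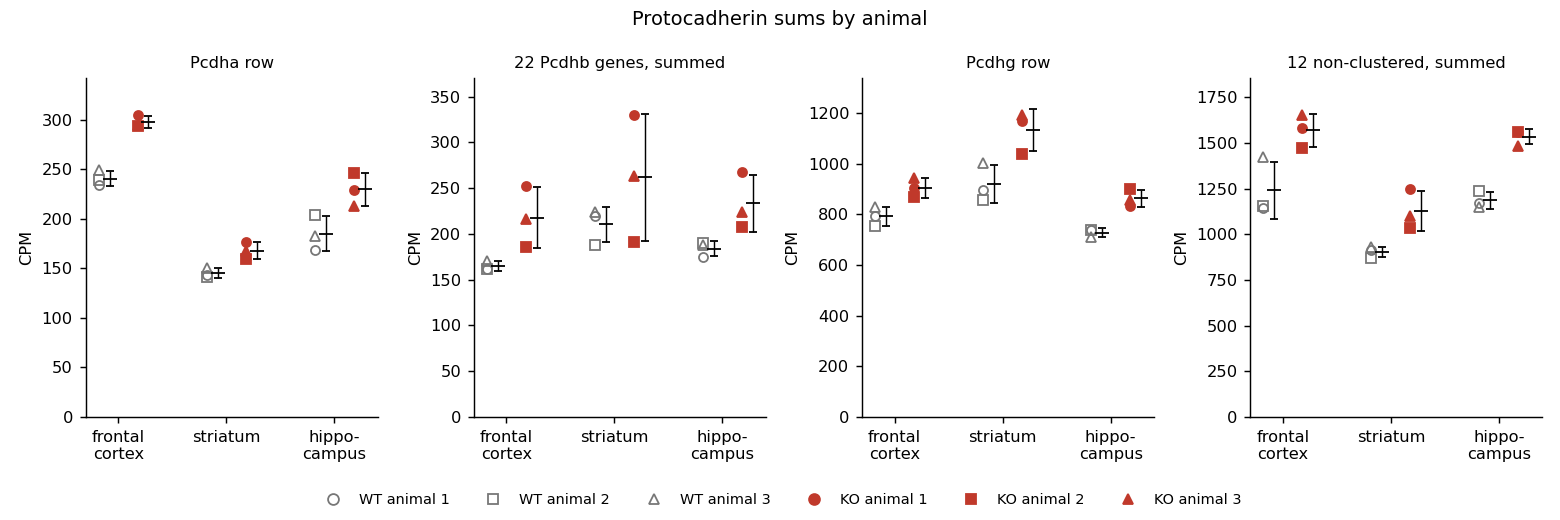
Summed CPM of the Pcdhb genes, the Pcdha and Pcdhg gene models and the non-clustered genes in each animal, by region (open WT, filled KO, which is Pcm1-/-); bars are the mean ± SD of 3 animals. Among mutants, animal 1 has the highest Pcdhb sum and animal 2 the lowest in each region.

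The Pcdhb sums were 161, 161 and 171 CPM in WT animals and 252, 185 and 216 CPM in mutants in the frontal cortex, 220, 188 and 223 CPM in WT and 330, 191 and 264 CPM in Pcm1-/- striatum, and 174, 190 and 188 CPM in WT and 268, 208 and 224 CPM in Pcm1-/- hippocampus. Pcdha in the mutants was at 305, 294 and 295 CPM in frontal cortex, 176, 160 and 168 CPM in striatum and 230, 246 and 213 CPM in hippocampus, so that mutant animal 1 was highest in the first 2 regions and mutant animal 2 in the last. Without mutant animal 1, the median genotype difference of the beta genes was 0.26 in frontal cortex, 0.15 in striatum, 0.21 in hippocampus and 0.24 in the summed counts, the last with 18 of 22 genes above 0. Without mutant animal 2 it was 0.48 in the summed counts, with 22 of 22 above 0. Transcripts of 4 Y-linked genes (2988 to 4306 counts) were present in the libraries of WT animal 2 and mutant animal 2 and nearly absent (0 to 5 counts) from the others. Among the mutants only animal 2 had them, so its sex cannot be told apart from the animal. Between mutant animals 1 and 3, 21 of 22 beta genes were lower in animal 3 (median −0.27). Of these 1 was past the adjusted threshold, where 0.171% of all genes passed. The parts of sex and of the genetic background, which includes any DNA kept from the stem cell line, in these differences were not tested.

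As a description, the deviations of beta genes from their group means correlated with each other across the 18 libraries (median Pearson r 0.66 over 231 pairs, and 0.71 over the 21 pairs of neighbouring genes). They correlated less with Pcdha (median 0.28 over 22 pairs), Pcdhg (0.35) and the non-clustered genes (0.22 over 264 pairs). These correlations share libraries, depth and animals, and the beta genes also share sequence.

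Genes that act on the clusters or with the proteins were examined from lists. Of 26 genes for CTCF, cohesin, DNA methylation and related regulators of promoter choice, 0 passed in any of the 4 genotype comparisons, with median log2 differences from −0.01 to 0.05. At an unadjusted p under 0.05, 2 were lower in frontal cortex, 1 in striatum, 0 in hippocampus and 1 in the summed counts, and 0 higher, where 7.47%, 6.98%, 5.06% and 8.49% of all genes were lower. Between striatum and frontal cortex 17 genes of the list were higher in striatum and 1 lower, 18 of 26, where 65.7% of all genes passed (33.4% as higher). Among the higher were Stag2, a cohesin subunit (0.54), Dnmt3a, a DNA methyltransferase (0.60), Tet1, which oxidizes methylated cytosine (0.66), and Nipbl, the cohesin loader (0.49). In hippocampus 13 were higher and 3 lower than in frontal cortex, 16 of 26, where 56.6% of all genes passed (28.3% as higher).

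Of 23 signalling and membrane partners of protocadherins, which include kinases, a phosphatase and WAVE subunits, 0 passed by genotype in a single region, and in the summed counts Ret, a receptor tyrosine kinase that binds clustered protocadherins, was lower in Pcm1-/- mice (−0.71 ± 0.089, adjusted p = 0.0291), 1 of 23 where 1.39% of all genes passed. At an unadjusted p under 0.05, 5 partners were higher and 2 lower there (8.76% and 8.49% of all genes), and the sum of the list, as the mean of an animal's 3 regions, was at 6911 to 7125 CPM in WT animals and 7328 to 7674 CPM in mutants. Between striatum and frontal cortex 8 of the 23 partners were higher in striatum and 9 lower (shares of all genes given above). Ppp1ca, the phosphatase bound by delta1 tails, was among the higher, by 1.18 on the log2 scale. Of 8 proteases that cleave protocadherins, Psen2, a gamma-secretase subunit, was higher in Pcm1-/- frontal cortex (0.37 ± 0.073, adjusted p = 0.0482), where 1.74% of all genes passed. In that region 5 of the 8 were higher and 0 lower at an unadjusted p under 0.05 (shares of all genes given above). Their sum was at 910 to 950 CPM in WT and 1014 to 1073 CPM in mutant libraries there. Of 19 classical cadherins, Cdh6 (0.46, adjusted p = 0.0377) and Cdh18 (0.34, adjusted p = 0.0410) were higher there, and 0 passed in striatum, hippocampus or the summed counts. At an unadjusted p under 0.05, 6 were higher and 2 lower in frontal cortex (shares of all genes given above). In the summed counts 6 were higher and 3 lower at that level (8.76% and 8.49% of all genes). The list summed to 685 to 713 CPM in WT and 743 to 804 CPM in mutant striatum, and the genotypes overlapped in the other regions. As the mean of an animal's 3 regions it was at 648 to 671 and 700 to 724 CPM. Of 11 atypical cadherins tested, 0 passed in any of the 4 genotype comparisons. In the summed counts 3 were higher and 0 lower at an unadjusted p under 0.05 (8.76% and 8.49% of all genes). Their summed level was at 3211 to 3392 CPM in WT and 3683 to 3847 CPM in mutant libraries of the frontal cortex, at 1811 to 2082 and 1976 to 2460.02 CPM in striatum and at 1859.6 to 2086 and 2237 to 2315 CPM in hippocampus. The genotypes overlapped in striatum and were apart in the other regions.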

How the data were processed

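RNA was isolated from snap-frozen frontal cortex, striatum and hippocampus and sequenced as 18 stranded mRNA libraries. The authors trimmed the reads with Trim Galore and cutadapt, aligned them to GRCm38 (Ensembl release 73) with STAR, kept reads with 1 genomic position and counted them per gene with HTSeq, and the deposited values are raw counts per gene, 1 file per library, without normalization. Tool versions and the strand setting are not given in the sources used here. Of the reads in the files, 86.8% to 89.2% were assigned to genes, and 1.58% to 1.79% were ambiguous between genes. These and the other lines that name no gene were left out of library sizes and tests.

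The study names edgeR for its own tests, and the settings of the test below were set here. Groups, replicate numbers and lanes came from the sample labels, and animals from the names of the deposited files. Same-group libraries differed by more than sampling noise, so each counted as 1 replicate. Genes were joined by identifier to a GENCODE annotation of GRCm38, in which 36639 of the 38561 genes had a symbol, and members were taken by symbol, coding type and a minimum of 10 counts in at least 1 library. The members, and the lists of related genes and cell type markers, were chosen with earlier results of these data known.

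Within a region, genotypes were compared in edgeR 4.0.16 under R 4.3.3 (TMM factors, quasi-likelihood F test, Benjamini-Hochberg adjustment over 17545 genes, threshold 0.05) and again on counts summed over the 3 regions of each animal. Regions, the interaction and animal differences were tested in 1 fit of all 18 libraries with terms for animal, region and region by genotype. CPM values used TMM factors of all 18 libraries, levels per length used exon bases belonging to no other gene on the same strand, and a standard error is the log2 difference divided by the square root of F. The tests were run on simulated counts with known changes before use. The biological coefficient of variation was 9.49% in frontal cortex, 13.8% in striatum and 16.4% in hippocampus, which sets the size of difference each region could show. In frontal cortex the mutant libraries held 29132185 to 33405081 counts and the WT libraries 26535872 to 29716439.

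Alternatives were DESeq2 1.42.0, its size factors, other filters on low counts, a replicate block, lane and Y-linked counts as covariates, 1 fit of all libraries, 1 genotype at a time, and leaving out each library. Members named are all non-clustered genes, those past the threshold, the most and least abundant beta genes and the beta genes with the largest rise and fall in a comparison; of other lists, at most 4 genes past the threshold per comparison. Promoter windows were cut from the RefSeq promoter table, and no sequence of chromosome 18 is shown.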

Additional observations from a re-analysis of the deposited data

Results flagged for a closer look

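For the following members, every animal of one group moved one way and every animal of the other the opposite way. In each case the difference between the groups was not tested by this rule. The within-animal interaction test called 0 members with edgeR and 2, Pcdh9 and Pcdh11x, with DESeq2. With many members and region pairs examined, some such patterns arise by chance. Pcdh9 was lower in frontal cortex than in hippocampus in all 3 WT animals (mean log2 ratio −0.22) and higher in all 3 Pcm1-/- animals (0.21). Its interaction over the 3 regions had an adjusted p of 0.129 with edgeR's quasi-likelihood test.

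Pcdh11x was higher in Pcm1-/- than in WT frontal cortex (0.46) and striatum (0.37) and lower in Pcm1-/- hippocampus (−0.36), with an adjusted interaction p of 0.129. Pcdh18 was lower in striatum than in hippocampus in all WT animals (−0.38) and higher in all Pcm1-/- animals (0.15), with an adjusted interaction p of 0.423, at levels of 3.48 to 5.54 CPM.

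Among beta genes, Pcdhb15 was lower in frontal cortex than in striatum in WT animals (−0.23) and higher in Pcm1-/- animals (0.19), and Pcdhb22 was lower in frontal cortex than in hippocampus in WT animals (−0.23) and higher in Pcm1-/- animals (0.09). These 2 beta genes are named because of these values.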

How the results depend on the processing

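Numbers of members higher in Pcm1-/- mice depended on the settings. The shares of all genes given above belong to edgeR's test with its main settings. For the other fits and covariates, here and above, no share of all genes is given. In frontal cortex the count of 4 became 11 with DESeq2, 8 with a replicate block, 1 with the lane as covariate, 21 at an unadjusted p under 0.05, and 1 to 11 without 1 library. In striatum the count of 0 became 5 with DESeq2, 3 with Y-linked counts as covariate, 1 in 1 fit of all 18 libraries and 11 at an unadjusted p, and stayed 0 without any 1 library. In hippocampus it became 2 with DESeq2, 3 in 1 fit of all libraries and 17 at an unadjusted p, with 2 lower, and stayed 0 without any 1 library. In the counts summed per animal, 4 became 12 with DESeq2, 20 at an unadjusted p and 0 to 5 without 1 animal. The interaction count of 0 became 2 with DESeq2 and 0 to 1 without 1 library, and the count of 9 members differing between animals became 14 with DESeq2, 5 with the lane and 6 to 12 without 1 library. The causes were not tested. Regional counts over all members moved by over 1.5 times where at least 2-fold was required, to 5 higher and 5 lower (striatum minus frontal cortex), 3 and 4 (hippocampus minus frontal cortex) and 4 and 6 (striatum minus hippocampus). The 16 members higher in hippocampus than in frontal cortex became 14 with DESeq2, 12 with the lane, 11 without a replicate block, 11 in the libraries of either genotype and 11 to 15 without 1 library, and the 14 beta genes called there became 12, 9, 7 and 8 under the first 4 of these.

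Some small differences changed sign. With the lane, Pcdh17, Pcdh18 and Pcdh19 in frontal cortex came to −0.046, −0.0092 and −0.030. In the 9 Pcm1-/- libraries, hippocampus minus frontal cortex came to −0.21 for Pcdh9 (adjusted p = 0.0458 with edgeR) and 0.16 for Pcdh12, and striatum minus hippocampus to 0.16 for Pcdh18. Without 1 library the genotype difference in frontal cortex ran from −0.063 to 0.13 for Pcdh17, −0.039 to 0.069 for Pcdh18, −0.026 to 0.40 for Pcdh19 and −0.33 to 0.042 for Pcdh15. In striatum it ran from −0.29 to 0.29 for Pcdhb8, −0.059 to 0.078 for Pcdh9, −0.073 to 0.17 for Pcdh8 and −0.045 to 0.091 for Pcdh20. In hippocampus it ran from −0.16 to 0.13 for Pcdhb8 and −0.21 to 0.37 for Pcdh12, and in the summed counts from −0.27 to 0.12 for Pcdhb8. Hippocampus minus frontal cortex ran from −0.027 to 0.029 for Pcdh9 and −0.24 to 0.27 for Pcdh12. For single members, 927 of the other values kept direction and side of the threshold, 25 passed it newly, 42 lost it and 6 changed sign; without 1 library these were 1758, 8, 101 and 35.

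Same-numbered replicates of both genotypes correlated at 0.043, 0.260 and 0.197 in frontal cortex, 0.178, −0.156 and −0.269 in striatum and 0.0955, 0.507 and 0.194 in hippocampus. Replicates with different numbers came to −0.223 to 0.0395, −0.348 to 0.388 and −0.387 to 0.232 in these regions. The WT striatum replicates are numbered in another order of animals than those of the other regions. Whether the numbers pair the samples was not tested. With 3 animals per genotype and a spread that was largest in hippocampus, the regional tests had unequal power. Members with few counts, Pcdh12 and Pcdhb1, could show large changes only.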
